A study of Mus musculus with 2 samples.

Results

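Retinoic acid synthesis, breakdown and reception were followed in the open chromatin landscape of the embryonic mouse kidney through 10 genes: the synthesis enzymes Aldh1a1, Aldh1a2 and Aldh1a3, the receptors Rara, Rarb, Rarg and Rxra, the breakdown enzymes Cyp26a1 and Cyp26b1, and the binding protein Crabp1. Each gene was represented by the peaks that overlapped its body or the 2 kb upstream of it (GENCODE M21, mm10). Together they held 119 of the 176056 regions formed from the peak lists, and 79 of the 110706 regions in which both libraries had a peak. Kidneys were taken at E15.5 and profiled by snATAC-seq, an assay of single nuclei that counts the ends a transposase leaves when it cuts accessible DNA. There was 1 library per group. The Enl-WT library came from Enl +/+ Wt1 GFPCre/+ embryos, and the Enl-T1 library from Enl flox-T1/+ Wt1 GFPCre/+ embryos, which express an insertion mutant of the chromatin reader ENL found in Wilms tumour from the Enl locus after Cre recombination. Both groups thus carried the Wt1 GFPCre allele, which takes the place of a normal Wt1 copy and drives Cre from Wt1 regulatory sequence in nephron and stromal lineages. How many embryos were pooled per library is not stated in the labels or methods. Counts per peak carry no readout of the insertion, so the genotype labels could not be checked in these files.

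Retinoic acid is made from vitamin A in a pair of oxidation steps, the last of which is carried out by the ALDH1A retinaldehyde dehydrogenases. CRABP proteins bind it in the cytoplasm and CYP26 enzymes of the cytochrome P450 family oxidise it for removal. In the nucleus it binds retinoic acid receptors (RAR), which act as heterodimers with retinoid X receptors (RXR) on response elements made of repeated core motifs. In the developing kidney, retinoic acid made in the stroma and its receptors are known for keeping Ret, a receptor tyrosine kinase needed for branching, expressed in the ureteric bud.

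Repeats of the kind this receptor pair reads are shown first, since 3 of the members carry one in open chromatin. The core motif searched was a purine, G, G or T, T, C and A, as a direct repeat with 5, 2 or 1 bases between the copies (DR5, DR2, DR1), on both strands. Each line gives 29 bases 5′ to 3′ on the strand of the repeat, from the GRCm38.p6 (mm10) genome of RefSeq, with the core motifs in capitals.
Rarb DR5, chr14:16575507-16575535, minus strand: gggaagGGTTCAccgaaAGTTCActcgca
Rara DR5, chr11:98960002-98960030, plus strand: caggcgAGTTCAgcaagAGTTCAgccgaa
Rxra DR1, chr2:27710721-27710749, plus strand: tctatcagGGGTCAtGGGTCAgagggcat
Cyp26a1 DR5, chr19:37697770-37697798, minus strand: caaattAGTTCAcccaaAGTTCAtcttta
By GENCODE, the Rarb repeat lay in the first exon, 14 bases after the start of Rarb-201, within a region open in both libraries. By the start used for the promoter windows below, its first base lay 53 bases before the start, in the Rarb promoter. The Rara repeat lay 404 bases before the start of Rara-202 and the Rxra repeat 146 bases after the start of Rxra-203, each also inside a region with a peak in both libraries. The Cyp26a1 repeat lay 22 bases before the gene's start, where neither library had a peak. In 300 bases at the centre of each region, a repeat was present in 3 of the 79 shared member regions (3.8%) and in 789 of all 110665 shared regions searched (0.713%). DR5 was found in 2 of the 79 (2.53%) against 0.242% of all regions, DR1 in 1 (1.27%) against 0.284%, and DR2 in 0, a spacing held by 0.189% of all regions. Over the whole length of the regions the same number, 3 of 79 (3.8%), stood beside 2.50% of all regions. In RefSeq promoter windows of 300 bases, 2 of the members' 15 (13.3%) held a repeat, against 193 of 32851 (0.588%). Aldh1a3 had no window, and some members had several. A pair of Rara windows overlapped in most of their bases (chr11:98937446-98937745 and chr11:98937468-98937767), so the 15 are not separate members. A match describes the letters only.

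The libraries differed in depth and in composition. After barcodes outside 2000 to 100000 total counts were set aside, 9472 of 9628 nuclei of Enl-WT (98.4%) and 12635 of 13376 of Enl-T1 (94.5%) remained, with 138176616 and 110265593 counts in peaks over all barcodes. The median nucleus of Enl-WT held 14790 counts and that of Enl-T1 8753. Among all barcodes, 169 sequences occurred in both libraries, and among the barcodes kept, 149. Nuclei were classed by markers after clustering without the members, the pathway list and 50 kb on either side of each. Classes held 1536 nephron progenitor nuclei in Enl-WT and 3810 in Enl-T1, 2910 and 4777 stromal, 976 and 1887 ureteric epithelial (UE), and 761 and 616 endothelial nuclei. Nuclei named as later nephron classes were few in Enl-T1: 132 early nephron nuclei against 941, 45 proximal tubule against 778, 88 distal tubule or loop against 717, and 3 podocytes against 290. Another 438 Enl-WT and 1058 Enl-T1 nuclei lay in unnamed clusters. Early nephron markers were higher in the progenitor class of Enl-T1 than in that of Enl-WT (below), so the early nephron counts rest on how clusters were named. Of the markers, 8 of 10 for nephron progenitors, 6 of 10 for interstitial stroma, 6 of 9 for UE and 10 of 10 for endothelium had their highest level in their own class in Enl-WT. The early nephron (3 of 8), immune (4 of 9) and erythroid (2 of 7) labels rested on fewer. The UE class included cluster 19 (56 Enl-WT and 149 Enl-T1 nuclei) and cluster 20 (65 and 123). Their median depth was at least 1.20 and 1.30 times that of the library. Ano4, also a leading gene of stromal clusters, led cluster 19, and Lmx1b, also one of progenitor clusters, led cluster 20. The part of doublets in the UE levels was not tested. Progenitors of the libraries fell into different clusters, cluster 2 with 1535 Enl-WT and 101 Enl-T1 nuclei and cluster 0 with 1 and 3709. Values below are CPM, a class's counts scaled to the total of that class in shared regions, with 95% Poisson intervals over fragments. These cover counting error only, and with 1 library per group no difference could be tested against the spread between kidneys.

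The peak lists held 108 rows over the members in Enl-WT against 94 in Enl-T1. Of the 119 regions they formed, 79 were called in both libraries, 28 in Enl-WT only and 12 in Enl-T1 only, so that 74.1% of the Enl-WT rows and 87.2% of the Enl-T1 rows were shared. These shares lay close to the 70.0% and 86.6% of all peaks of the libraries. Rarb, which spans 388318 bases, held the most regions with 39, 26 of them shared and 1 of these also overlapping the window of its neighbour Top2b. Rxra held 17 regions (10 shared), Rara 16 (13), Aldh1a2 14 (7), Aldh1a1 7 (3), Aldh1a3 7 (4), Rarg 7 (6), Cyp26b1 6 (5) and Crabp1 5 (4). Cyp26a1 held 1 region, an exonic one centred 1010 bp after its start. It was the only member with no peak at the start of any of its protein-coding transcripts. Aldh1a1 and Cyp26b1 had peaks at starts of shorter transcripts, but none at the outer start of the gene (chr19:20492715 and chr6:84593908). Over all nuclei of the library that had them, regions called in Enl-WT only held 171 to 1768 counts and those called in Enl-T1 only 96 to 991. Peaks were called in each library separately, and a peak missing from the shallower list is not evidence of closed chromatin.

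Per kb of peak over all nuclei, 3 of the 4 receptors were the most accessible members. In Enl-WT, Rara stood at 18.9 CPM per kb, Rarg at 18.1 and Rxra at 14.4, and the same genes led in Enl-T1 with 20.1, 22.7 and 16.2. Aldh1a2 followed with 9.34 CPM per kb in Enl-WT and 12.1 in Enl-T1, then Crabp1 with 8.63 and 10.8, Cyp26b1 with 8.42 and 9.14, and Aldh1a3 with 7.22 and 7.52. Rarb, with its many distal regions, stood at 6.28 and 6.93 CPM per kb, ahead of Cyp26a1 (4.12 and 4.89) and Aldh1a1 (2.89 and 2.62). Peaks were narrower in Enl-T1, and Aldh1a2 was covered by 6437 bp of shared peak in the first library and 5766 bp in the second, so the per-kb scale does not compare the libraries.

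**Figure D1:**
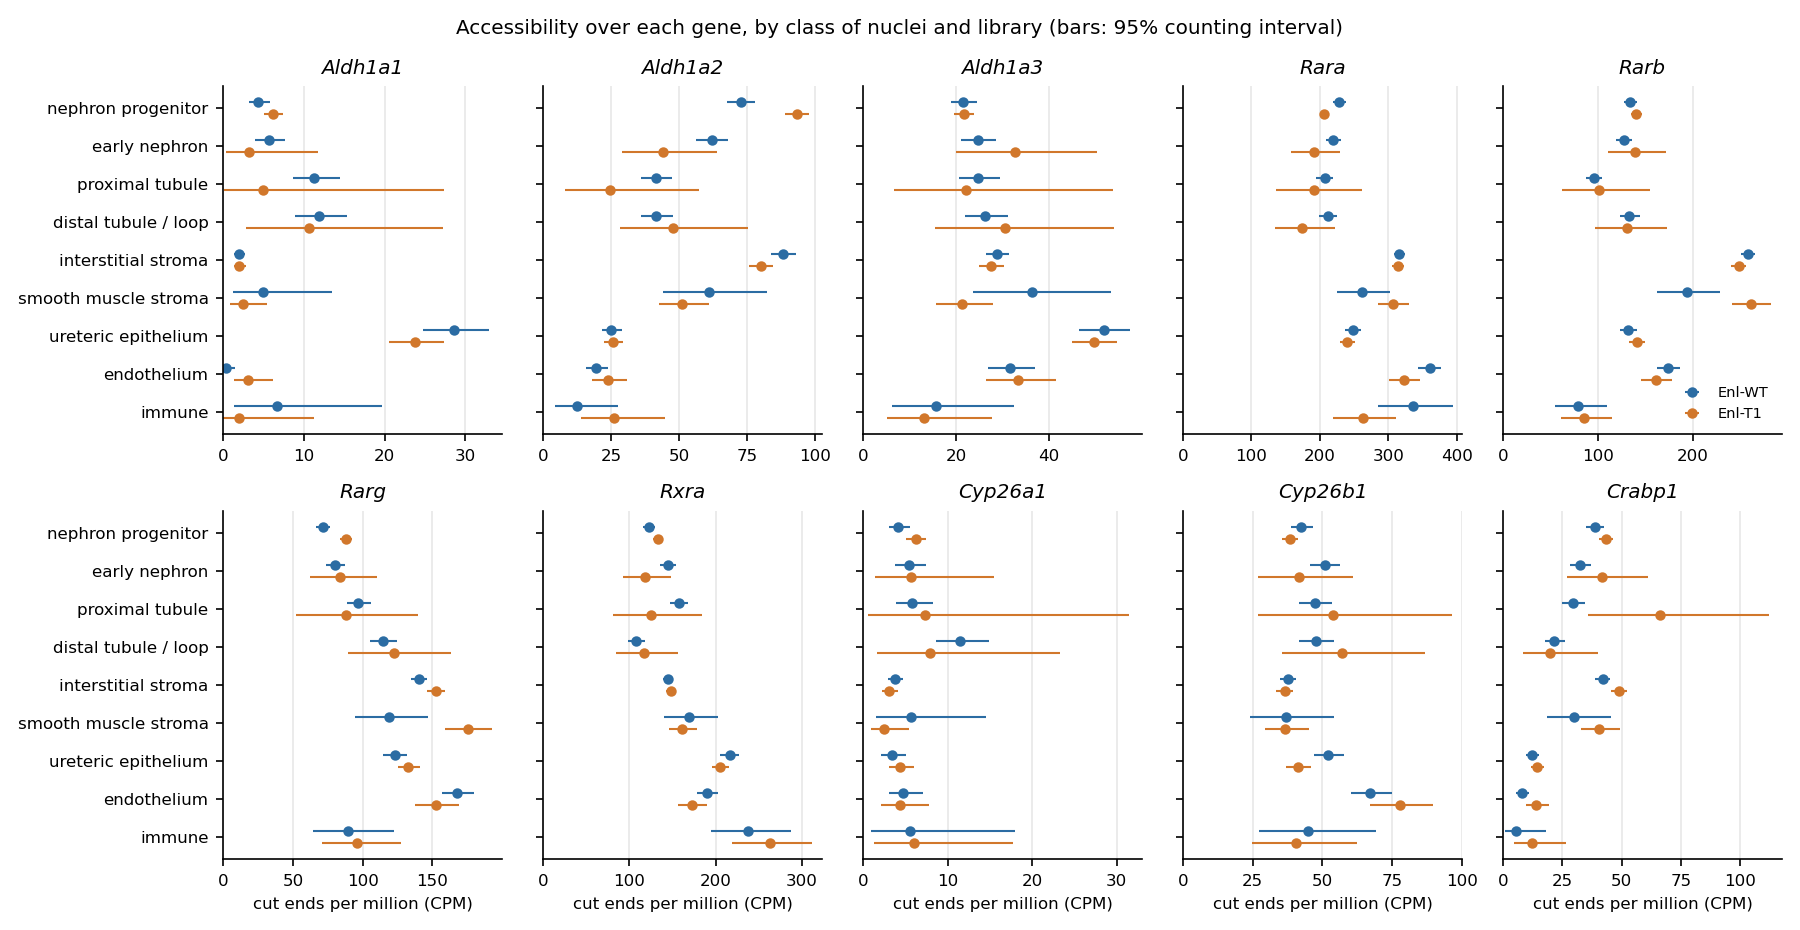
Accessibility of each of the 10 genes (CPM, 1 panel per gene, linear axis) in 9 classes of nuclei, with Enl-WT and Enl-T1 as separate points and bars for the 95% counting interval. Podocyte and erythroid nuclei, few in number, are not drawn. Aldh1a1 and Aldh1a3 stand out in UE, Aldh1a2 in stroma and nephron progenitors, and Rarb in stroma, while Rara is accessible in every class.

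The 3 synthesis genes were accessible in different compartments. Aldh1a2, the main retinaldehyde dehydrogenase of the embryo, was highest in the interstitial stroma of Enl-WT at 88.4 CPM (84.0 to 92.9). Nephron progenitors followed at 72.8 (67.7 to 78.1) and early nephron at 62.0 (56.3 to 68.2). The interval of stroma lay apart from both, and those of progenitors and early nephron overlapped. Smooth muscle (61.1), podocytes (47.3), proximal tubule (41.5) and distal tubule (41.5) lay below and each overlapped its neighbour in the order. UE stood at 25.2 CPM and endothelium at 19.6, with overlapping intervals. In Enl-T1 the order at the top was the other way round, with 93.4 (89.0 to 98.0) in progenitors and 80.1 (75.7 to 84.6) in interstitial stroma. Aldh1a3, a second enzyme of this family, was highest in UE in both libraries, with 51.7 CPM (46.5 to 57.3) for Enl-WT and 49.6 (45.0 to 54.7) for Enl-T1, and lower in progenitors with 21.6 in each. Aldh1a1 was low in most classes. It reached 29.1 CPM (21 to 39.2) in Enl-WT podocytes and 28.6 (24.7 to 32.9) in Enl-WT UE, levels that cannot be ordered, and 23.8 (20.6 to 27.3) in Enl-T1 UE. In endothelium it held 4 counts (Enl-WT) against 15 (Enl-T1), too few for a ratio of use. The 3 podocyte nuclei of Enl-T1 gave 0 counts, which allows a level of up to 469 CPM.

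Aldh1a2 carried separate regions for progenitors and stroma within its introns. The region 1823 bp after the start (chr9:71217145-71218079, intron) stood at 23.9 CPM in Enl-WT progenitors and 40.6 in Enl-T1 progenitors, against 4.16 and 5.88 in stroma. The region at 26144 bp (chr9:71241475-71242392, intron) had the opposite pattern, with 7.16 and 5.71 CPM in progenitors against 41.6 and 36.0 in stroma. A region at 28612 bp (chr9:71243939-71244864, intron) again favoured progenitors, at 15.54 and 11.5 CPM against 3.46 and 3.73. On the log2 scale, stroma differed from progenitors at these regions by -2.53 (-2.92 to -2.15), 2.54 (2.20 to 2.90) and -2.17 (-2.61 to -1.74) in Enl-WT and by -2.79, 2.66 and -1.62 in Enl-T1. The start region itself (chr9:71215122-71216057) was open in both classes, with 15.54 and 24.7 CPM in progenitors and stroma of Enl-WT and 19.5 and 19.4 in Enl-T1. The centre 300 bases of the progenitor region and of the stromal region are printed because they carry the sharpest contrast among the synthesis genes. Neither holds the receptor core motif, so no base is in capitals.
Aldh1a2 progenitor region, chr9:71217462-71217761, plus strand: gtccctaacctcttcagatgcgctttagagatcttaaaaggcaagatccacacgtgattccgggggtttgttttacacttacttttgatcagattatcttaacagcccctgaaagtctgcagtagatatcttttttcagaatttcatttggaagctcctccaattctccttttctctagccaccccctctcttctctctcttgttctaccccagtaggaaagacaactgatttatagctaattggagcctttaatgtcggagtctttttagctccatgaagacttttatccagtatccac
Aldh1a2 stromal region, chr9:71241784-71242083, plus strand: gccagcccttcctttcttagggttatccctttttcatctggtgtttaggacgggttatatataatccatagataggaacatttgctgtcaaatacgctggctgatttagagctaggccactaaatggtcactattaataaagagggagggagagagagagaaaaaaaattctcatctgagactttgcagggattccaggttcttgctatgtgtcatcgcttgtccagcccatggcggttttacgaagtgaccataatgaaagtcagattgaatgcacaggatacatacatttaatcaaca
Their GC content was 41.3% each.

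The receptor genes shared broad accessibility and differed in how far stroma led. Rara, the widely expressed RAR, was highest in Enl-WT endothelium at 360.5 CPM (344 to 378), then immune nuclei at 336 (285 to 395) and interstitial stroma at 316 (308 to 324), of which the immune interval overlapped both. In nephron progenitors Rara stood at 228 CPM (Enl-WT) and 207 (Enl-T1), and in stroma at 314 and 313. Rarb, a receptor gene that is itself a known target of retinoic acid, was highest in interstitial stroma of Enl-WT at 258 CPM (250 to 265), and in Enl-T1 interstitial stroma (248, 240 to 256) and smooth muscle (261, 241 to 282) overlapped. Progenitors held 134 CPM of Rarb in Enl-WT and 140 in Enl-T1, levels shared with podocytes (134), distal tubule (133) and UE (132) of Enl-WT. Rarg was highest in Enl-WT endothelium at 168 CPM (157 to 180), ahead of interstitial stroma at 140 (135 to 146), and lowest in progenitors at 71.7 (66.7 to 76.9), although erythroid, podocyte, early nephron and immune nuclei overlapped that value. Rxra, the partner subunit, leaned to other classes. It was highest in immune nuclei (238 and 263 CPM) and UE (216 and 205), and stood at 123 and 133 in progenitors and 146 and 149.9 in stroma.

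Between stroma and nephron progenitors, 21 of the 67 member regions with enough counts were higher in stroma by 1 or more on the log2 scale in both libraries and 7 were lower. Among all regions counted, 20.2% were higher and 15.52% lower, and enough counts meant at least 200 in each library over both classes. The stromal regions were 10 of Rarb, 4 of Rara, 3 of Rarg, 2 of Rxra, 1 of Aldh1a2 and 1 of Aldh1a3. The 7 regions that favoured progenitors were 3 of Rarb, 2 of Aldh1a2, 1 of Cyp26b1 and 1 of Crabp1. When each nucleus was named by its own marker score, without clusters, the counts were 13 and 1, an alternative added after seeing the data. The share of all regions past the limit was not computed under that naming, so these counts have none beside them. Regions said here to favour progenitors or stroma are those of the main classes. At the level of whole genes none of the 9 members with enough counts passed 1 in both libraries, a size that 2.86% of all genes exceeded toward stroma and 4.09% toward progenitors. Rarb came close with 0.93 (0.85 to 1.02) for Enl-WT and 0.83 (0.76 to 0.91) for Enl-T1, and so did Rarg with 0.96 (0.84 to 1.08) and 0.83 (0.74 to 0.92). Aldh1a1, which was under the count limit, stood on the progenitor side at -1.04 (-1.70 to -0.39) for Enl-WT and -1.59 (-2.17 to -1.04) for Enl-T1.

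**Figure D2:**
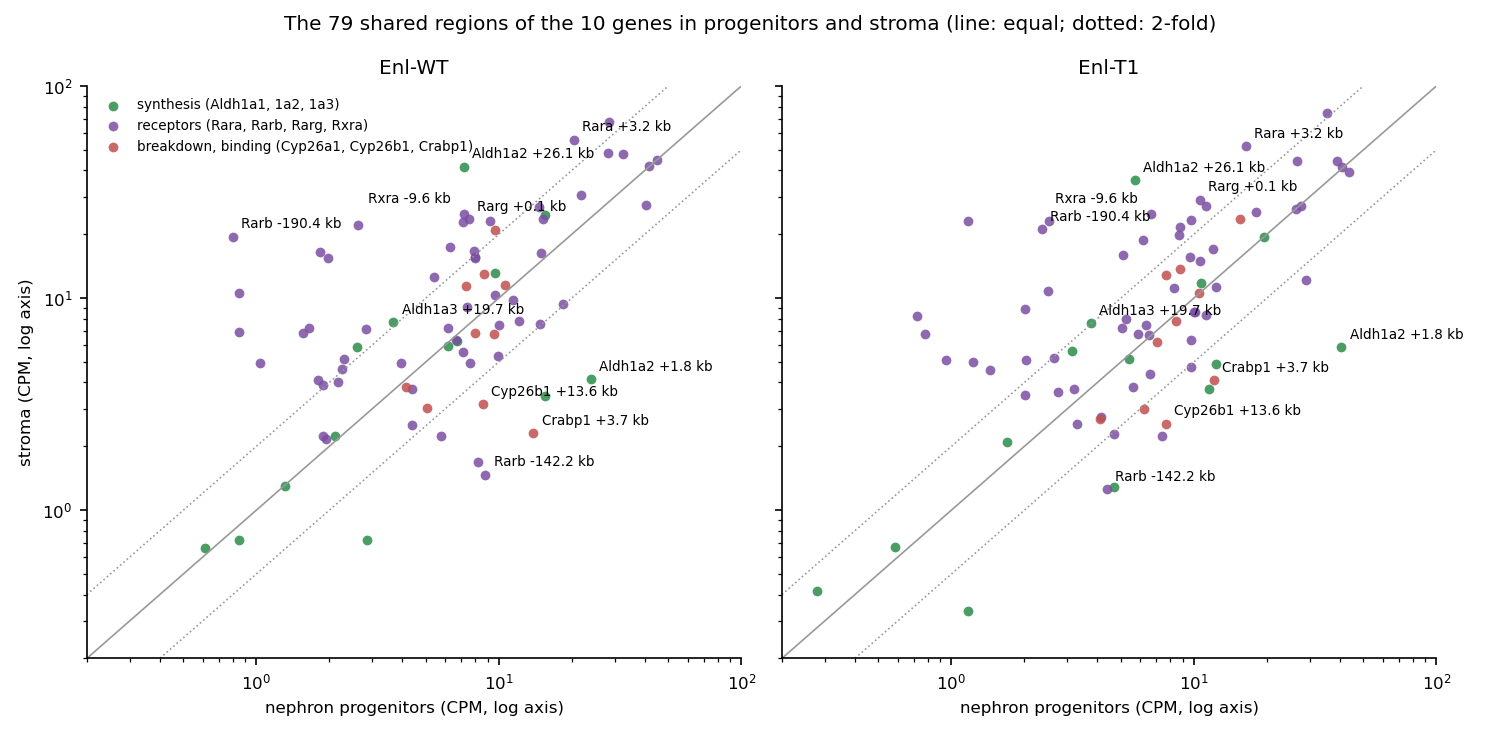
Accessibility of the 79 shared member regions in nephron progenitors (x axis) and stroma (y axis), CPM on log axes, with a panel for each library and colours for synthesis, receptor and other genes. The solid line marks equal values and the dotted lines a 2-fold difference. Regions of Rarb reach furthest above the line, at 0.80 against 19.5 CPM in Enl-WT, and the Aldh1a2 region at 1823 bp lies far below it, at 40.6 against 5.88 in Enl-T1.

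Rarb showed the widest spread among its own regions. Of the stromal regions in its introns, the one at -190434 bp from the start of Rarb-207 (chr14:16765794-16766728) stood at 0.80 CPM in Enl-WT progenitors and 19.5 in Enl-WT stroma, and at 2.37 and 21.1 in Enl-T1. The one at -152846 bp (chr14:16728265-16729082) stood at 1.84 and 16.4 CPM in Enl-WT and at 1.17 and 23.1 in Enl-T1. The log2 difference between the classes was 4.61 (3.64 to 5.79) and 3.16 (2.70 to 3.65) at the first of them and 3.16 (2.50 to 3.90) and 4.31 (3.67 to 5.01) at the other, in Enl-WT and Enl-T1. Negative positions lie upstream of that start in the direction of transcription, and these regions are intronic to longer transcripts of Rarb. The progenitor regions of Rarb were weaker, with 8.80 CPM at -142154 bp (chr14:16717474-16718489) in Enl-WT progenitors against 1.47 in stroma, and 4.37 against 1.25 in Enl-T1. The Rarb start region that contains the DR5 (chr14:16575092-16576217) was open in every class compared, at 32.5 CPM in progenitors, 48.0 in stroma, 32.7 in UE and 44.7 in endothelium of Enl-WT, and at 39.1, 44.3, 33.8 and 37.9 in Enl-T1.

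**Figure D3:**
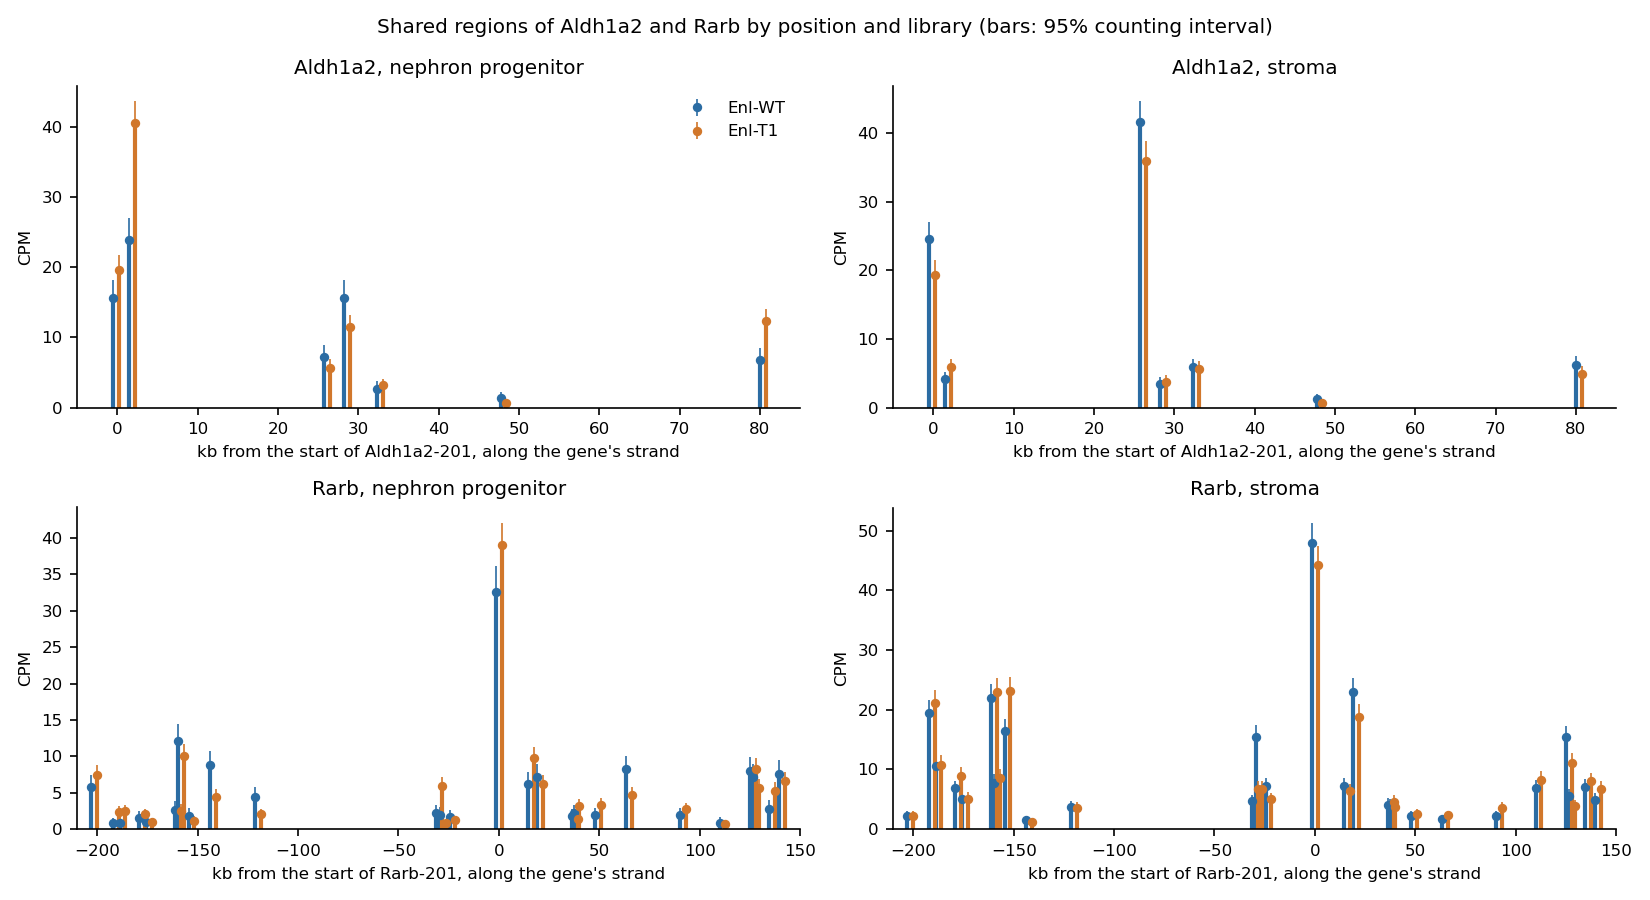
Shared regions of Aldh1a2 and Rarb by distance from the start of Aldh1a2-201 and Rarb-201 (x axis, kb along the gene), with accessibility in CPM (y axis, scaled per panel) in panels for nephron progenitors and stroma, and bars for the 95% counting interval. The stems of the libraries are set slightly apart so that both can be seen. Stroma leads over a run of distal Rarb regions and progenitors lead at the Aldh1a2 region next to its start.

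The other receptors had fewer class-restricted regions. In Rarg, the start region of Rarg-202 (chr15:102246098-102246676) stood at 7.53 CPM in Enl-WT progenitors and 23.6 in Enl-WT stroma, and at 10.6 and 29.1 in Enl-T1, a log2 difference of 1.65 (1.30 to 2.01) and 1.46 (1.21 to 1.70). In Rara, a region at 3238 bp after the start of Rara-202 (chr11:98963083-98964218) stood at 20.4 and 55.9 CPM in progenitors and stroma of Enl-WT and at 16.4 and 52.2 in Enl-T1. The Rara start region that contains the DR5 (chr11:98959330-98960924) held 28.3 CPM in progenitors and 48.4 in stroma of Enl-WT, and 26.7 and 44.3 in Enl-T1. Rxra had a stromal region at -9576 bp from the start of Rxra-202 (chr2:27699139-27700292), with 7.16 against 24.9 CPM in Enl-WT and 6.63 against 24.95 in Enl-T1. Its region at 34317 bp after the start of Rxra-203 (chr2:27744463-27745337) was foremost a UE region, with 68.2 CPM in UE of Enl-WT, 27.2 in endothelium and 3.96 in progenitors. The Rxra start region that contains the DR1 (chr2:27710388-27711338) was weak, at 1.88 CPM in progenitors, 3.88 in stroma, 5.66 in UE and 9.64 in endothelium of Enl-WT.

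Of the breakdown genes, Cyp26b1 was broadly open and Cyp26a1 hardly so. Cyp26b1 was highest in endothelium, at 67.3 CPM (60.2 to 74.9) for Enl-WT and 77.7 (67.0 to 89.6) for Enl-T1, and stood at 42.4 and 38.4 in progenitors and 37.5 and 36.5 in stroma. Its region at 13641 bp (chr6:84573418-84574660) favoured progenitors, with 8.62 against 3.16 CPM in Enl-WT and 7.68 against 2.56 in Enl-T1. Cyp26a1 reached 11.5 CPM (8.68 to 15.0) in the distal tubule or loop of Enl-WT and lay between 1.69 and 5.78 in the other classes of that library except erythroid, which had 2 counts. The binding protein gene Crabp1 followed Aldh1a2 in its spread, with 42.0 CPM (39.0 to 45.1) in interstitial stroma and 38.8 (35.1 to 42.7) in progenitors of Enl-WT, which overlapped, and 12.3 in UE and 7.91 in endothelium. Its region at 3680 bp (chr9:54767995-54768860, exon) favoured progenitors, with 13.9 against 2.30 CPM in Enl-WT and 12.1 against 4.09 in Enl-T1.

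Enl-T1 was then set against Enl-WT within classes, as a description of the libraries. With 1 library per group, a difference between genotypes cannot be told apart from other differences between the libraries. A gene was called when it had at least 200 counts over both libraries in the class and a log2 ratio of Enl-T1 to Enl-WT of 0.5 or more either way. In nephron progenitors, 1 of the 10 members was called higher and 0 lower, against 2.66% of all genes called higher and 3.7% lower. The called member was Cyp26a1, with 4.14 and 6.21 CPM from 88 and 223 counts, a log2 ratio of 0.58 (0.07 to 1.12). Aldh1a1 fell just short at 0.50 (-0.01 to 1.03), with 4.33 and 6.12 CPM from 92 and 220 counts. Next were Aldh1a2 at 0.36 (0.24 to 0.48), from 72.8 to 93.4 CPM, and Rarg at 0.29 (0.17 to 0.42), from 71.7 to 87.8 CPM. Rara was slightly lower at -0.14 (-0.22 to -0.07), Rxra was at 0.12 (0.02 to 0.21), and the ratio intervals of Rarb (0.07), Aldh1a3 (0.00), Cyp26b1 (-0.14) and Crabp1 (0.16) lay within 0.5 of zero on the log2 scale. The median over the members was 0.14, beside 0.01 over all genes. The summed markers of the class differed as well: nephron progenitor markers stood at 528 CPM in Enl-WT progenitors and 396 in Enl-T1 progenitors, with 1 of 10 higher, and early nephron markers at 372 and 496, with 6 of 8 higher. UE markers stood at 278 and 306 and interstitial stroma markers at 280 and 251. The part of these shifts, and of the separate clusters, in the ratios was not tested. In cluster 2 alone, with its 101 Enl-T1 nuclei, the ratio of Aldh1a2 was -0.07 (-0.63 to 0.44) and that of Cyp26a1 0.06 (-3.03 to 2.00), the latter from 4 Enl-T1 counts. Both intervals also hold the value of the whole class.

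**Figure D4:**
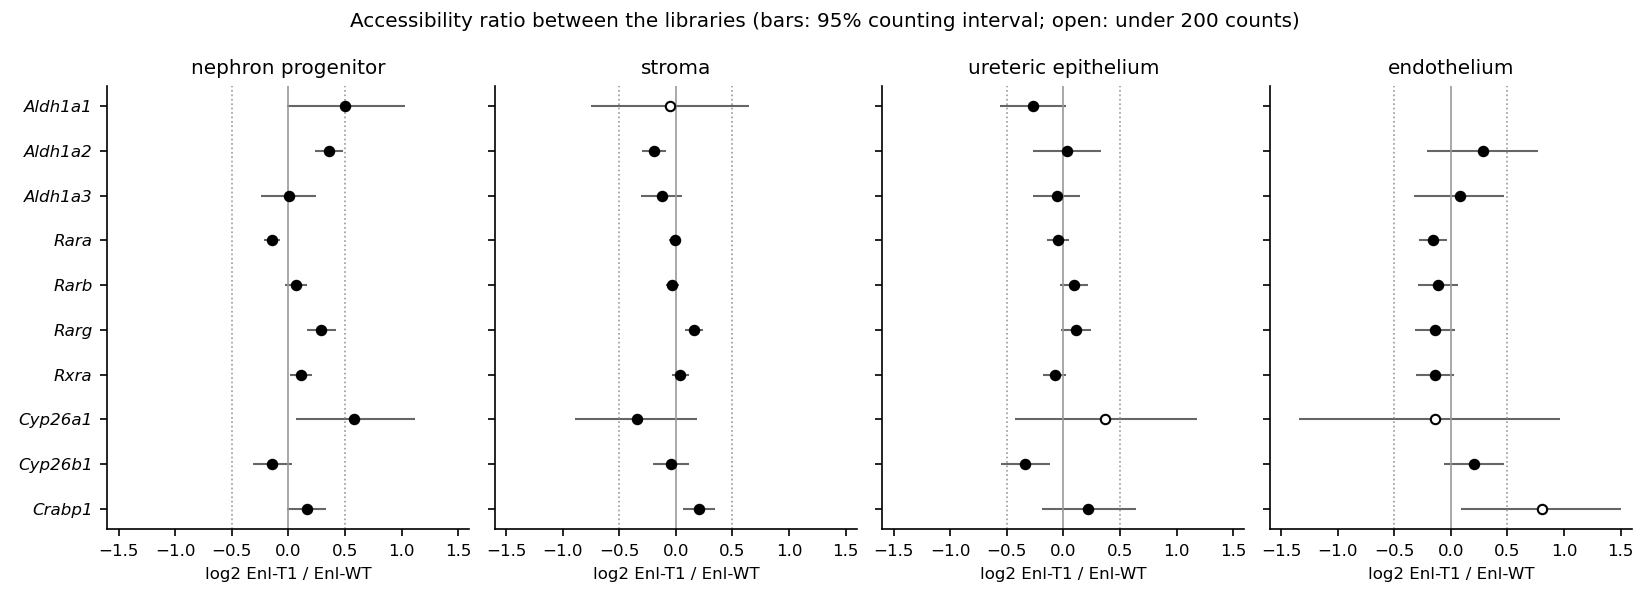
Log2 ratio of Enl-T1 to Enl-WT (x axis) for the members in nephron progenitors, stroma, UE and endothelium, with 95% counting intervals. Open symbols have under 200 counts, dotted lines mark 0.5 either way, and Aldh1a1 in endothelium, with 4 and 15 counts, is not drawn. Cyp26a1 in progenitors is the only member past the lines with enough counts.

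Single regions in progenitors differed more than whole genes. Of 58 member regions counted, 11 were higher in Enl-T1 and 5 lower, against 14.8% and 15.7% of all regions, the first share a little above and the other below that of all regions. The median ratio was -0.03 over the member regions and 0.01 over all regions. The Aldh1a2 region at 1823 bp, the progenitor region printed above, had 508 Enl-WT counts, 1457 Enl-T1 counts and a log2 ratio of 0.76 (0.55 to 0.97), from 23.9 to 40.6 CPM. The last exon of Aldh1a2 (chr9:71295726-71296713) stood at 6.73 and 12.4 CPM, a ratio of 0.88 (0.49 to 1.28). Higher too were the Rarg-201 start (chr15:102257096-102258022; 8.004 and 11.9 CPM, ratio 0.58, 0.21 to 0.96), the Aldh1a1 start (chr19:20601466-20602453; 2.87 and 4.68 CPM, ratio 0.70, 0.09 to 1.35), a Crabp1 intron region at 5756 bp (9.65 and 15.45 CPM, ratio 0.68, 0.35 to 1.02) and the Cyp26a1 region. In Rarb the regions at 135886 bp (0.90), 15873 bp (0.66) and -29554 bp (1.39) were higher and those at 64682 bp (-0.80) and -142154 bp (-1.01) lower, the last 2 of them regions that favoured progenitors over stroma. In Rara, regions at -4827 bp from Rara-204 (-0.61, from 40.3 to 26.4 CPM) and at 14666 bp (-0.55) were lower. Rxra had neighbouring regions in both directions, at 29755 bp (-0.62), 34317 bp (0.74) and 35656 bp (0.66). Each library was counted in its own peaks, and some widths were very unequal. Rarb at -29554 bp had 1177 bp of Enl-WT peak against 1859 bp of Enl-T1 peak, and Rara at 14666 bp had 1487 against 832 bp. Both ratios lay toward the wider peak, and the part of width in them was not tested. Other called regions ran against width, among them the last exon of Aldh1a2 (988 against 834 bp) and Rarb at 64682 bp (839 against 1003 bp). With nuclei named singly, 3 regions were higher and 1 lower, and Rxra at 35656 bp was at -0.07. In cluster 2 alone, with 101 Enl-T1 nuclei, 10 of the 16 called regions had the opposite sign: the Aldh1a1 and Rarg-201 starts, both of Aldh1a2, both of Rara, Rarb at 64682 and -29554 bp, and Rxra at 29755 bp (0.54) and 35656 bp (-0.51). The interval of each of these 10 included 0. They rested on few Enl-T1 counts, from 2 at the Aldh1a1 start to 39 at Rara -4827 bp, so their direction is not settled. The Aldh1a2 region at 1823 bp had a ratio of 0.38 (0.07 to 0.69) with nuclei named singly, and in cluster 2 alone -0.88 (-2.34 to 0.26) from 508 and 12 counts.

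In stroma none of the 9 members with enough counts was called in either direction between the libraries, where 1.65% of all genes were higher and 1.28% lower, and the median ratio was -0.03 beside 0.00 over all genes. Aldh1a2 was lower at -0.20 (-0.30 to -0.09), from 87.3 to 76.2 CPM, and its start region lower at -0.35 (-0.55 to -0.14), from 24.7 to 19.4 CPM. Rarg was higher at 0.16 (0.08 to 0.24) and Crabp1 at 0.20 (0.06 to 0.35). Rara (-0.01), Rarb (-0.03) and Rxra (0.04) had intervals that included 0. Interstitial stroma markers summed to 521 CPM in Enl-WT stroma and 532 in Enl-T1 stroma, with 5 of 10 higher, and smooth muscle markers to 424 and 361. The stromal clusters were filled unequally, with 5 Enl-WT and 994 Enl-T1 nuclei in cluster 10 and 28 and 659 in cluster 13, and smooth muscle nuclei made up 105 of 2910 and 704 of 4777. The part of this makeup in the ratios was not tested. In the 4 stromal clusters with at least 100 nuclei of each library, Aldh1a2 was at -0.31 (-0.44 to -0.19) and Crabp1 at -0.01, so the Crabp1 ratio was not seen there.

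Of 69 member regions counted in stroma, 5 were higher in Enl-T1 and 3 lower, against 9.95% and 8.2% of all regions. The region of Rarb at -27471 bp from the start of Rarb-207 (chr14:16602817-16603779, intron) stood furthest apart, with 15.46 CPM from 558 counts in Enl-WT stroma and 6.74 CPM from 242 counts in Enl-T1 stroma, a ratio of -1.20 (-1.52 to -0.89). It kept that direction in the 4 clusters held by both libraries, at -0.85 (-1.19 to -0.52), and with nuclei named singly, at -1.19 (-1.61 to -0.79). The region was nearly closed in progenitors, at 1.98 and 0.78 CPM. A neighbouring Rarb region at -29554 bp (chr14:16604347-16606415) was higher in Enl-T1 stroma at 0.55 (0.13 to 0.96). Its peaks in the libraries could not be matched 1 to 1. The centre 300 bases of the region at -27471 bp are printed as the largest stromal difference among the members. The capitals mark 2 core motifs, both read on the opposite strand.
Rarb region, chr14:16603148-16603447, minus strand: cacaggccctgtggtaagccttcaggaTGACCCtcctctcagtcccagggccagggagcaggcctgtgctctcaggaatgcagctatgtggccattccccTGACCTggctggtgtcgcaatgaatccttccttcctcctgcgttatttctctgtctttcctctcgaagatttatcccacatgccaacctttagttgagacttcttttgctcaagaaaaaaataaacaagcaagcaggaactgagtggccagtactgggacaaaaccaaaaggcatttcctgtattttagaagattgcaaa
The other stromal regions past the threshold were Rarb at 127904 bp (-0.54), 91597 bp (0.68) and -22762 bp (-0.53), Rara at 2058 bp (0.59), Rxra at 40485 bp (0.54) and Crabp1 at 3680 bp (0.83, from 2.30 to 4.09 CPM). Rarb at 127904 bp had 1248 bp of Enl-WT peak against 748 bp of Enl-T1 peak, and at -22762 bp 1283 against 865 bp. These ratios, like that at -29554 bp (1177 against 1859 bp), lay toward the wider peak. So did, with smaller differences of width, Rarb at -27471 bp (963 against 860 bp) and 91597 bp (897 against 970 bp). The same held for Rxra at 40485 bp (887 against 1018 bp) and Crabp1 at 3680 bp (809 against 866 bp). Of the stromal regions past the threshold, only Rara at 2058 bp (908 against 888 bp) did not. The part of width in the ratios was not tested.

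In UE and endothelium no member was called. The median ratios of the members were -0.05 in UE and -0.11 in endothelium, beside -0.02 over all genes in each. In UE, 1.33% of all genes were higher and 0.972% lower, and of the 9 members counted the one furthest from 0 was Cyp26b1 at -0.34 (-0.55 to -0.12), from 52.1 to 41.3 CPM. Aldh1a1 stood at 28.6 and 23.8 CPM and Aldh1a3 at 51.7 and 49.6. In endothelium, 1.86% of genes were higher and 1.71% lower, and Rara, at -0.16 (-0.28 to -0.03), from 360.5 to 324 CPM, was the only one of the 7 counted members whose interval excluded 0. Crabp1 stood at 7.91 and 13.8 CPM there, from 78 and 67 counts, too few for a call.

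The other 27 genes of the pathway, which cover vitamin A uptake and synthesis, binding, further receptors, cofactors and targets, had few calls. In nephron progenitors 2 of the 26 counted were higher and 0 lower, beside 2.66% and 3.7% of all genes. They were Rbp4, the retinol carrier of blood plasma, with 5.60 and 9.72 CPM (119 and 349 counts) and a ratio of 0.79 (0.36 to 1.24), and Adh7, an alcohol dehydrogenase able to oxidise retinol, with 6.64 and 9.46 CPM and a ratio of 0.51 (0.10 to 0.93). In stroma 1 of 26 was lower, beside 1.28% of all genes, and in UE 1 of 26, beside 0.972%, in each case Lrat, which stores retinol as its ester, at -0.55 (-1.08 to -0.03) from 159 and 108 counts and at -0.81 (-1.40 to -0.23) from 126 and 87 counts. The stromal call of Lrat ended with fragments in place of cut ends, with nuclei named singly and in the clusters held by both libraries. Its UE call ended with doublets removed, with a marker lead of 0.2 and with nuclei named singly, and the progenitor count of 2 became 1 with TMM, fragments, thinning or doublets removed. In endothelium 0 of 18 were called, beside 1.86% of all genes higher and 1.71% lower. Ret stood at 47.3 CPM in UE of Enl-WT and 48.3 in UE of Enl-T1, a ratio of 0.03 (-0.18 to 0.25). The list's medians were -0.04 in progenitors, 0.01 in stroma, 0.01 in UE and -0.02 in endothelium.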

How the data were processed

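Kidneys of 2 groups (Enl-WT and Enl-T1, 1 library each) were profiled by snATAC-seq. Per the labels, the authors used Cell Ranger ATAC 2.1.0 with mm10, and deposited raw cut-end counts per peak and barcode, with peaks called in each library separately. The counts are not normalised, and 91.1% (Enl-WT) and 88.0% (Enl-T1) of the values are even, so intervals were computed over fragments (counts divided by 2).

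Barcodes with 2000 to 100000 counts were kept. Overlapping peaks of the libraries were joined into regions, and those with a peak in both were used for levels. Nuclei were clustered by latent semantic indexing (components 2 to 30, scikit-learn 1.9.0) and Leiden (resolution 1, leidenalg 0.10.2), with regions within 50 kb of a member or pathway gene left out, and clusters were named from marker lists. A cluster needed 3 raised markers and a mean lead of 0.4 log2 over the median cluster. Leading genes of a cluster were checked above 100 CPM, a limit set after 20 CPM had let weakly accessible genes lead. Doublets were not removed in the main values, only in an alternative. Levels are counts per 1e6 counts of the class in shared regions (CPM). Ratio intervals are conditional binomial and exact, at 95%, and cover counting error only. The study's test over nuclei was not used, because nuclei of 1 library are not replicates. A gene or region was called with at least 200 counts and a log2 ratio of 0.5 or more either way. In the contrast of stroma with progenitors the limit was 1 in both libraries. The named genes and regions are the 10 members, pathway genes past the fold, Ret, regions at start sites, and regions past the fold whose interval leaves out 0. Regions named for the contrast between classes, and the Rxra region in UE, were chosen after their values were seen. The members and lists were chosen with earlier results of these data known.

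Sequences came from RefSeq GRCm38.p6 (the mm10 assembly). The ratio code and the motif search were tested on simulated data. Alternatives covered scaling (median of ratios, TMM of edgeR 4.0.16), region matching, filters, thinning to 4000 counts per nucleus, doublets, cluster settings and naming of single nuclei. Values for clusters held by both libraries, and for single nuclei or matched regions in the contrast between classes, were added after seeing the data.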

Additional observations from a re-analysis of the deposited data

Results flagged for a closer look

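The ratio of Enl-T1 to Enl-WT had opposite signs in nephron progenitors and stroma for Aldh1a2, the embryonic retinaldehyde dehydrogenase gene. It was 0.36 in progenitors and -0.20 in stroma on the log2 scale, a difference of 0.56. At the Aldh1a2 start region (chr9:71215122-71216057) it was 0.33 in progenitors and -0.35 in stroma, a difference of 0.68. With 1 library per group, neither difference was tested. In stroma the sign of the gene's ratio held under all 13 alternatives, from -0.35 to -0.16. In progenitors it held under 12 of 13, from -0.07 in cluster 2 alone to 0.40. For the start region, the progenitor value was 0.05 (-0.38 to 0.46) with nuclei named singly and -0.51 (-2.15 to 0.75) in cluster 2 alone, from 10 counts in Enl-T1.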

How the results depend on the processing

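Over the alternatives, 462 of 496 member ratios stayed within their main interval, 34 moved beyond it and 0 reversed. Only a ratio called in the main values could be labelled reversed, which among members was Cyp26a1 in progenitors alone. Uncalled ratios did change sign. In progenitors Rxra kept its sign under 10 of 13 alternatives (lowest -0.38), Rara under 11 and Aldh1a2 under 12. Rarg in progenitors and Aldh1a2 in stroma kept theirs under all 13. Of 227 region ratios 195 stayed, 21 moved and 11 reversed. Scaling shifted the median of all genes by under 0.1 log2 throughout. No paired analysis was possible because the groups share only replicate number 1. Leaving out a library was not run, since each group has 1.

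Counts given here are members first, then the pathway list, and values not named stayed within 1.5 times. The shares of all genes and regions past a limit were computed for the main values only. In nephron progenitors, members called higher (main 1) numbered 0 with matched regions, thinning, nuclei named singly, cluster 2 alone or a log2 limit of 1, and 2 with start-site regions only or a minimum of 5000 counts. With matched regions Cyp26a1 had no ratio, because its only region did not reach the overlap required. Pathway genes higher there (main 2) numbered 1 with TMM, fragments, thinning or doublets removed and 0 at a limit of 1, and those lower (main 0) numbered 1 with matched regions and 2 with thinning or cluster 2 alone. In stroma, members lower (main 0) numbered 1 with thinning, pathway genes lower (main 1) 0 with fragments, nuclei named singly, clusters held by both libraries or a limit of 1, and pathway genes higher (main 0) 1 in clusters held by both. In UE, pathway genes higher (main 0) numbered 1 with a minimum of 5000 counts or with no minimum per gene, and lower (main 1) 0 with doublets removed, a marker lead of 0.2, nuclei named singly or a limit of 1. In endothelium, members higher (main 0) numbered 2 and pathway genes higher (main 0) 4 with no minimum per gene, and pathway genes lower (main 0) 2 with thinning and 1 with doublets removed.

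Progenitor regions higher (main 11) numbered 3 with nuclei named singly and 1 at a limit of 1. Those lower (main 5) numbered 1, 8, 10 and 1 with nuclei named singly, cluster 2 alone, no minimum and a limit of 1. Stromal regions higher (main 5) numbered 3 with matched regions and 0 at a limit of 1, and lower (main 3) numbered 5 in clusters held by both, 6 with no minimum and 1 at a limit of 1. Regions higher in stroma than in progenitors (main 21) numbered 13, and lower (main 7) 1, with nuclei named singly. Shared Enl-T1 peaks went from 87.2% to 76.6% at a reciprocal overlap of 50%.

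In cluster 2 alone, with 101 Enl-T1 nuclei, progenitor ratios reversed for Aldh1a1 at its start (-0.41), Aldh1a2 at 1823 bp (-0.88) and its last exon (-0.64), Rara at -4827 bp (0.065) and 14666 bp (0.55), Rarb at 64682 bp (0.078) and -29554 bp (-0.003), Rarg-201 at its start (-0.30), and Rxra at 29755 bp (0.54) and 35656 bp (-0.51). With nuclei named singly, Rxra at 35656 bp was at -0.067. The interval of each of these reversed values included 0. The cause was not tested. Depth limits Aldh1a1, Cyp26a1 and classes under 200 nuclei most.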

Other observations

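For the 3 members with the widest range of log2(CPM + 1) over the classes of Enl-WT, the genes with the most similar pattern were found over 20 values (10 classes in 2 libraries). The classes of a library share its depth and its peak list, and the ranges of Aldh1a2 and Aldh1a3 include erythroid nuclei at 0 CPM. Aldh1a2 was most like Tenm4 (Pearson r 0.97), Scn1a (0.96) and Fzd2 (0.95). Aldh1a3 was most like Apbb2 (0.96), Gstm7 (0.96) and Ptger1 (0.96). For Aldh1a1 the closest were Cystm1 (0.88), Mark2 (0.87) and F2rl1 (0.83).

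Besides the Cyp26a1 DR5, which lay outside any peak, 2 DR1 sequences in Rarb lay in regions with a peak in 1 library only. The DR1 at chr14:16496735-16496763 lay in an Enl-T1 peak with 125 counts over all nuclei. The DR1 at chr14:16677120-16677148 lay in an Enl-WT peak with 665 counts.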
